A study of Mus musculus with 6 samples.

Results

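The genes described here encode respiratory complexes II to V of the mitochondrion, together with cytochrome c. They were chosen by name, as protein-coding genes whose symbol starts with Sdh, Uqcr, Cox or Atp5, plus Cyc1, Cycs, mt-Cytb, mt-Co1, mt-Co2, mt-Co3, mt-Atp6 and mt-Atp8, and the rule found 69 of the 55426 features in the table. Of these, 63 lie in nuclear DNA and 6 in mitochondrial DNA. RNA came from primary pancreatic stellate cells (PSCs), fibroblast-like cells isolated from the pancreas of wild-type C57BL/6 mice, which shared a medium with organoids of the mouse pancreatic ductal adenocarcinoma (PDAC) line mT3 across a transwell insert. The cultures were kept for 48 h at 21% O2 (normoxia, 3 samples) or 1% O2 (hypoxia, 3 samples), and the study asked what hypoxia does to PSCs in this setting. The mice were adults of both sexes, the PSC lines were used at early passage, and mT3 is a single line derived from a primary mouse tumor. PSCs without organoids were not analysed here, so every value includes the presence of tumor organoids. The labels do not say whether the 3 samples of a group came from separate PSC lines, and p-values then measure only the spread between these samples, which may be technical.

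Complex II passes electrons from succinate to ubiquinone, complex III hands them to cytochrome c, and complex IV gives them to oxygen. The proton gradient that complexes III and IV build is used by complex V, the ATP synthase. A few core subunits of complexes III, IV and V are encoded in mitochondrial DNA, whereas all subunits of complex II are nuclear, and assembly factors insert heme, copper and iron-sulfur clusters. Several complex IV subunits exist in more than one form, and Cox4i2 is the form of subunit 4 known from lung and from cells in low oxygen, whereas Cox4i1 is found in most tissues.

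The sequences of 3 nuclear promoters are shown because Cycs, Cox5a and Cox7a1 were, among members with a promoter sequence in the RefSeq table, those with the largest changes over 1.5-fold. Each window runs from 250 bases before to 50 bases after the start of the gene on GRCm38.p6. Capitals mark matches, on either strand, to the hypoxia-inducible factor (HIF) core ACGTG or GCGTG, to the NRF1 motif GCATGCG, to the ETS motif CCGGAAG and to the YY1 motif ATGGCGG. Matches may overlap each other.
Cycs, chr6:50566520-50566819, minus strand: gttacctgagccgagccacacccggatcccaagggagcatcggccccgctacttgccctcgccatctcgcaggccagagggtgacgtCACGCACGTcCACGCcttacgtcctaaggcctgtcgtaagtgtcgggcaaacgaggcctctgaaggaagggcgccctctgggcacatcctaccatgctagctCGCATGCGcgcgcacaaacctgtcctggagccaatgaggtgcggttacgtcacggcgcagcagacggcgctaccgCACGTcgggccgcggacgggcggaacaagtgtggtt
Cox5a, chr9:57520982-57521281, plus strand: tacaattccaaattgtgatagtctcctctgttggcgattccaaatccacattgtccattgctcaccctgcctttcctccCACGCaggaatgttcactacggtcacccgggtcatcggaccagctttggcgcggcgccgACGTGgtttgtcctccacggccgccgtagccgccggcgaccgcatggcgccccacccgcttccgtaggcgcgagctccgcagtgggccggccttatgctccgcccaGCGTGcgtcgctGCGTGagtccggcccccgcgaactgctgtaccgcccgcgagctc
Cox7a1, chr7:30183921-30184220, plus strand: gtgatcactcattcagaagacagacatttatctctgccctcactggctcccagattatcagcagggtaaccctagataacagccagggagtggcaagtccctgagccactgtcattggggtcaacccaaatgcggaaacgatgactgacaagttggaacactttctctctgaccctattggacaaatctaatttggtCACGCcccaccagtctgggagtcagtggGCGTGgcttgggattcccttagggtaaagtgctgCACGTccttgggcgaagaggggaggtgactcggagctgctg

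The window of Cycs held 4 matches to the HIF cores and 2 overlapping matches to the NRF1 motif, that of Cox5a held 4 to the HIF cores, and that of Cox7a1 held 3. RefSeq windows were matched for 46 of the 63 nuclear members. A HIF core in either form was in 31 of them (67.4%), against 43.8% of all 27025 windows of this length. The ETS motif was in 19 (41.3%, against 9.12% of all windows), the NRF1 motif in 8 (17.4%, against 3.64%) and the YY1 motif in 4 (8.70%, against 4.19%). These are matches of letters, with no measurement of binding, and the shares were not tested.

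A second set of sequences is shown because it bears on how the mitochondrial genes were counted. The first 120 bases of mt-Co2 are given with the same stretch of its nuclear copies Gm28661, on chromosome 1, and Gm13341, on chromosome 2, in the GENCODE transcripts, and capitals mark bases that differ from mt-Co2.
mt-Co2: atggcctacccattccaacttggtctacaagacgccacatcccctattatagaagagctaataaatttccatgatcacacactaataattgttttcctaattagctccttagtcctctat
Gm28661: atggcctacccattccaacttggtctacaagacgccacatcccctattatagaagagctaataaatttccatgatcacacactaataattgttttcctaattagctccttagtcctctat
Gm13341: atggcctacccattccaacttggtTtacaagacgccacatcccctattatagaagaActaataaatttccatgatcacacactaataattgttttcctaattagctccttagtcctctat

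The stretch of Gm28661 holds 0 differences and that of Gm13341 holds 2. Over all 681 bases of Gm28661, 681 were identical to mt-Co2, so a read from inside either gene has no base by which to tell them apart.

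Library totals were between 24749601 and 31925054 counts, and 3 counts correspond to between 0.094 and 0.122 CPM, the counts of a gene scaled to a common library size. Such limits cover counting error only. At an adjusted p under 0.05 and any fold, 31.0% of all tested genes were lower and 31.8% higher, and the marker counts that follow are at this threshold. Stellate cell and fibroblast markers summed to between 28585 and 35883 CPM in every sample and overlapped between the groups, although 6 of the 12 were lower, such as Lum (log2 fold change -2.17) and Acta2 (-0.65), and 4 were higher, such as Pdpn (0.99) and Pdgfra (0.82). All 10 genes of a hypoxia check list, such as Car9, were higher in hypoxia. Adipocyte markers summed to between 5420 and 7290 CPM in normoxia and between 3247 and 3564 in hypoxia, with 10 of 10 genes lower. Most of this sum was Lpl, which fell by less (log2 fold change -0.62) than the median of the list (-3.06). Macrophage markers summed to between 1034 and 1838 CPM in normoxia and between 530 and 962 in hypoxia, with 9 of 15 lower and 1 higher. Epithelial markers summed to between 3.22 and 5.31 CPM in normoxia and between 24.96 and 28.9 in hypoxia, most of it Krt19 (log2 fold change 4.94), with Epcam and Krt8 near 0, and endothelial markers summed to between 9.97 and 15.9 CPM in normoxia and between 14.99 and 21.4 in hypoxia, with Tek higher (1.16) and Kdr lower (-0.76). The part of these shifts in the results below was not tested.

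Respiratory genes of the nucleus and of the mitochondrion were lower in hypoxia as a group, and the exceptions lay in complex IV. Of the 69 members, 65 were abundant enough to be tested in edgeR's quasi-likelihood test, fitted over 16207 genes with Benjamini-Hochberg adjustment. The other 4 were Cox8b, with between 0 and 6 counts in a sample, and Cox7b2, Cox8c and a second Atp5o record (ENSMUSG00000116933), with 0 counts in every sample. At an adjusted p under 0.05 and a change over 1.5-fold, 39 members were lower and 2 higher, where 15.3% of all tested genes were lower and 18.9% higher. At an adjusted p under 0.05 and any fold, 56 were lower and 2 higher, against 31.0% and 31.8% of all tested genes. The samples of the groups did not overlap for 57 members that were lower and 2 that were higher, against 34.0% and 34.9% of all tested genes. The median log2 fold change of the tested members was -0.66, and that of all tested genes was -0.004. In bulk RNA, fewer cells of a type and less RNA per cell cannot be told apart.

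**Figure D1:**
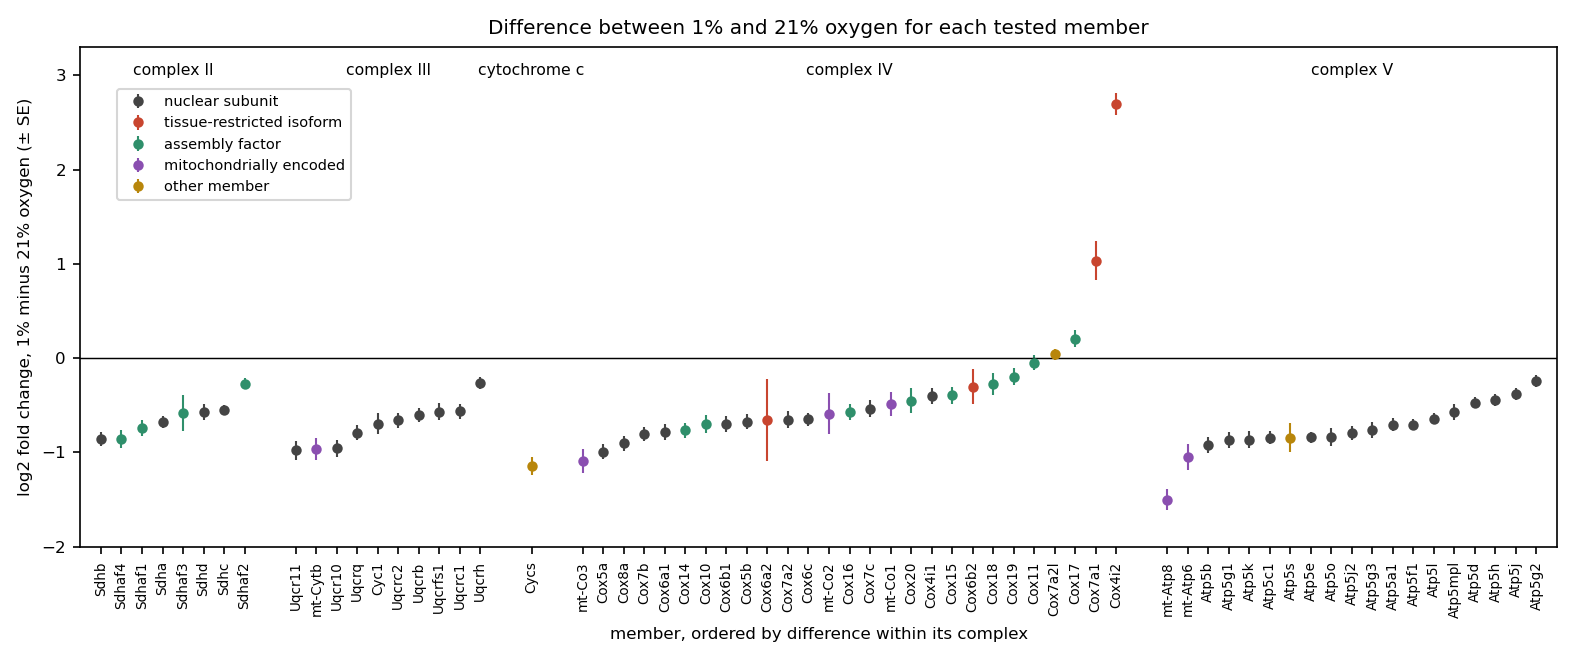
Log2 fold change of each of the 65 tested members between hypoxia and normoxia, with its standard error (SE), grouped by complex and coloured by class. Most points lie between 0 and -1.15, mt-Atp8 is the lowest at -1.50, and Cox4i2 at 2.70 and Cox7a1 at 1.04 stand above the rest.

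The clearest contrast was between the 2 forms of complex IV subunit 4. Cox4i2 (chromosome 2, 152754173 to 152765037, plus strand) had 204, 312 and 254 counts in normoxia and 1651, 2104 and 1990 in hypoxia, which is 7.85, 11.8 and 10.3 CPM against 64.8, 67.1 and 62.5 CPM. Every hypoxic sample was far above every normoxic one. Its log2 fold change was 2.70 (SE 0.12, adjusted p = 2.78e-07), a 6.48-fold increase. Cox4i1 (chromosome 8, 120668222 to 120674207, plus strand) moved the other way, from 321, 380.3 and 316 CPM to 259, 270.2 and 242 CPM. The groups did not overlap, and the log2 fold change was -0.40 (SE 0.08, adjusted p = 0.0022), the smallest decrease among the 10 nuclear core subunits of complex IV.

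Cox4i2 therefore took a larger share of the reads of this subunit. Of the counts on both genes, Cox4i2 held 2.85% ± 0.41 (SD, n = 3) in normoxia and 20.1% ± 0.36 (SD, n = 3) in hypoxia. Levels of different genes were compared per kilobase of merged exon length, on which scale Cox4i1 exceeded Cox4i2 by 17.6-fold in normoxia and by 2.02-fold in hypoxia, and Cox4i2 made up 5.46% and 33.2% of the summed level. With the length of the principal transcript, the ratios were 33.1 and 3.80 and the shares 2.97% and 20.8%, so the ratios and shares depend on the length taken. The log2 ratio of Cox4i2 to Cox4i1 differed by 3.11 between the groups, with an exact two-sided permutation p of 0.1, the smallest that 3 samples against 3 allow. The coding sequences of the 2 genes were 69.0% identical over 487 aligned bases, with no identical run longer than 14 bases. Of the 1550 exon bases of Cox4i1, 154 overlap Emc8 on the opposite strand, and whether the counting used strand is not given in the sources used here.

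**Figure D2:**
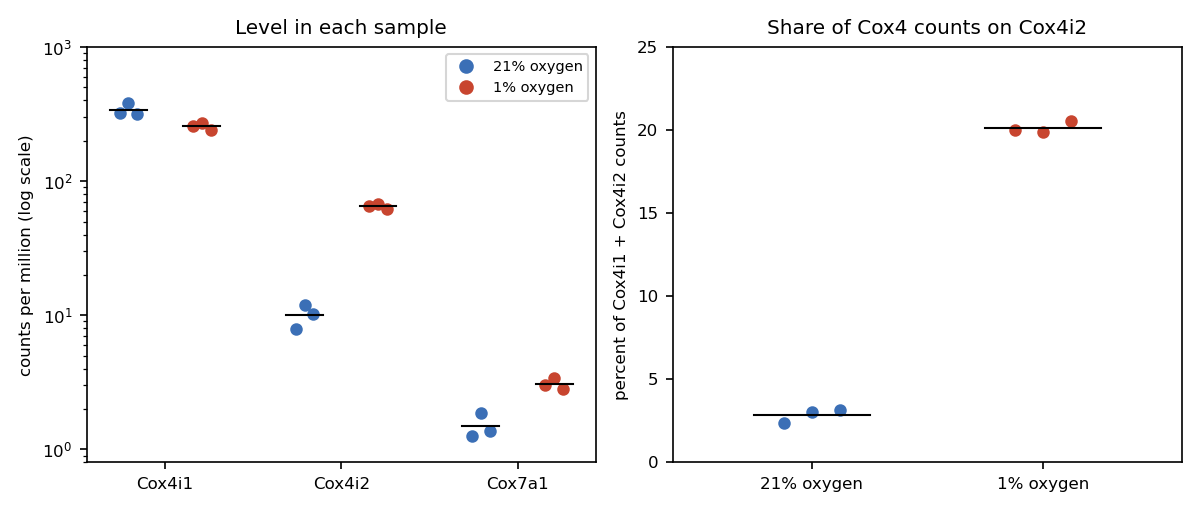
Left, CPM of Cox4i1, Cox4i2 and Cox7a1 in each sample on a log scale, with blue points for normoxia, red for hypoxia and black lines for means. Right, percent of the counts on Cox4i1 and Cox4i2 that fell on Cox4i2, near 2.85% in normoxia and 20.1% in hypoxia.

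Other alternative forms of complex IV subunits were rare. Cox7a1, the form of subunit 7a best known from heart and skeletal muscle, had 33, 49 and 34 counts in normoxia and 77, 107 and 90 in hypoxia, or 1.27, 1.86 and 1.38 CPM against 3.02, 3.41 and 2.83 CPM. It rose by 1.04 on the log2 scale (SE 0.21, adjusted p = 0.0020) without overlap of the groups, but remained far below Cox7a2, the common form, which fell from 56.5 ± 7.46 to 36.0 ± 1.22 CPM (SD, n = 3). Cox6a2, a muscle form, had between 11 and 31 counts (log2 fold change -0.66, SE 0.43, adjusted p = 0.21, and -0.13 without normoxia replicate 1). Cox6b2, a testis form, had between 57 and 89 counts (log2 fold change -0.30, SE 0.19, adjusted p = 0.18, and -0.17 without normoxia replicate 2). Both had overlapping groups. Markers of striated muscle summed to between 2.12 and 3.28 CPM in normoxia and between 4.79 and 7.76 in hypoxia, with 2 of 7 higher and Myh4 and Ckm at 0. Of the brown adipocyte markers, Dio2 and Prdm16 were higher while Ucp1 and Cidea were near 0. Mural cells of vessels are another type known to express Cox4i2. Their markers summed to between 79.0 and 87.2 CPM in normoxia and between 126 and 145 in hypoxia. Notch3, Rgs5 and Kcnj8 were higher, Mcam was lower and Higd1b was at 0, while Abcc9 (-0.24) and Cspg4 (-0.06) did not pass the test. Kcnj8 had overlapping groups (adjusted p = 0.0499). The part of these markers in the result was not tested.

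The 10 common nuclear subunits of complex IV were all lower at any fold, 8 of them by more than 1.5-fold, by a median of -0.68 on the log2 scale. Of all tested genes, 31.0% and 15.3% were lower at these thresholds. Cox5a, which joins subunit 4 early in assembly, fell most, from 52.6, 58.1 and 48.0 CPM to 25.9, 27.6 and 26.4 CPM (log2 fold change -0.99, SE 0.08, adjusted p = 6.55e-06). Per merged exon length, Cox8a was the nuclear core subunit with the highest level in normoxia, at 246 CPM per kb, and fell to 131 CPM per kb (log2 fold change -0.90, SE 0.08). Cox4i1 was highest in hypoxia, at 166 CPM per kb, and per length of the principal transcript it was highest in both groups, at 443 and 336 CPM per kb. Cox7b (-0.80), Cox6a1 (-0.78), Cox6b1 (-0.70), Cox5b (-0.67), Cox7a2 (-0.65) and Cox6c (-0.65) also fell by more than 1.5-fold. Cox7c, a small membrane subunit, passed the test at a smaller change of -0.54. Cox7a2l, known for a role in joining complex IV to complex III in supercomplexes, had 158 ± 1.51 CPM in normoxia and 162 ± 11.2 in hypoxia (SD, n = 3). Its groups overlapped (log2 fold change 0.04, SE 0.06, adjusted p = 0.57), and with length offsets the value was -0.05. Supercomplexes were not measured.

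Complex IV assembly members had a median of -0.39 over 9 genes, of which 5 were lower and none higher at any fold, against 31.0% and 31.8% of all tested genes. Cox14, which acts with newly made mt-Co1 protein, fell most (log2 fold change -0.77, SE 0.08), and Cox10, an enzyme of heme A synthesis, fell by 0.70 on the log2 scale. Cox16, Cox20 and Cox15 passed the test at changes under 1.5-fold, between -0.57 and -0.39, and 2130 of the 3751 exon bases of Cox16 are shared with Gm20498. The call of Cox20 was lost without hypoxia replicate 1 (log2 fold change -0.37, adjusted p = 0.053; between 0.0063 and 0.053 over all alternatives), and 804 of its 883 exon bases overlap Hnrnpu on the other strand, so its counts are uncertain. Cox17, the copper carrier of complex IV, was the only assembly member with a value above 0, from 23.1 ± 1.77 to 26.7 ± 2.61 CPM (SD, n = 3), with overlapping groups (log2 fold change 0.21, SE 0.09, adjusted p = 0.073). It passed the test as higher without normoxia replicate 2 (log2 fold change 0.25, adjusted p = 0.042) or hypoxia replicate 3 (0.29, adjusted p = 0.024), and its adjusted p lay between 0.024 and 0.43 over the alternatives. Cox11, Cox18 and Cox19 did not pass the test, at -0.05, -0.27 and -0.20. Leaving out 1 sample, they ran from -0.10 to -0.02, from -0.30 to -0.24 and from -0.25 to -0.10.

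All 8 members of complex II were lower at any fold, against 31.0% of all tested genes. Sdha, the flavoprotein that binds succinate, fell from 250.1, 283 and 242 CPM to 161, 162 and 163 CPM (log2 fold change -0.68, SE 0.07, adjusted p = 2.68e-05), and the hypoxic samples lay close together. Sdhb, the iron-sulfur subunit, fell most among the 4 core subunits, at -0.86 (SE 0.07), and Sdhc, a membrane anchor, least, at -0.55 (SE 0.05). Sdhd, the other anchor, had the highest level per merged exon length, 76.6 CPM per kb in normoxia and 51.6 in hypoxia, whereas per length of the principal transcript Sdha was highest, at 89.0 and 55.7 CPM per kb. Among the assembly factors, Sdhaf4 (-0.86), Sdhaf1 (-0.74) and Sdhaf3 (-0.59) fell by more than 1.5-fold and Sdhaf2, which adds the flavin to Sdha, by less (-0.27, SE 0.06). Sdhaf3 had 142 counts at most, and its call was lost without normoxia replicate 2 (log2 fold change -0.38, adjusted p = 0.078), hypoxia replicate 1 (-0.56, adjusted p = 0.063) or hypoxia replicate 2 (-0.56, adjusted p = 0.067); its adjusted p lay between 0.0054 and 0.078 over the alternatives.

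The 9 nuclear subunits of complex III were lower at any fold as well, 6 of them by more than 1.5-fold, by a median of -0.66. Across all tested genes, these shares were 31.0% and 15.3%. Uqcr11, the small subunit with the highest level per merged exon length in normoxia (97.4 CPM per kb), fell from 54.7, 71.8 and 60.8 CPM to 32.4, 33.7 and 29.1 CPM (log2 fold change -0.98, SE 0.10, adjusted p = 3.81e-05). Uqcrh, the hinge protein between cytochrome c1 and cytochrome c, changed least, at -0.27 (SE 0.07, adjusted p = 0.0064), and had the highest level per merged exon length in hypoxia, 70.0 CPM per kb. Per length of the principal transcript it was highest in both groups, at 190.3 and 158 CPM per kb. Uqcr10 (-0.96), Uqcrq (-0.79), Cyc1 (-0.69), Uqcrc2 (-0.66) and Uqcrb (-0.60) fell by more than 1.5-fold. Cyc1 encodes cytochrome c1, and its normoxic values of 112, 148 and 105 CPM were more spread than its hypoxic values of 76.0, 74.6 and 74.6 CPM. The Rieske iron-sulfur protein gene Uqcrfs1 and the core protein gene Uqcrc1 passed the test below that fold, at -0.57 and -0.56.

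Cycs, the mobile electron carrier, fell more than any other nuclear member. It went from 1540, 1916 and 1354 counts to 710, 902 and 886, that is, from 59.2, 72.7 and 54.9 CPM to 27.9, 28.8 and 27.8 CPM. Every hypoxic sample lay below every normoxic one (log2 fold change -1.15, SE 0.10, adjusted p = 1.20e-05). Summed with its 4 near-identical copies, of which Gm10053 held between 274 and 707 counts in a sample, the log2 fold change was -1.14 (SE 0.11).

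Complex V followed the same direction, with 16 of 16 tested nuclear core subunits lower at any fold, 11 of them by more than 1.5-fold, against 31.0% and 15.3% of all tested genes, and a median of -0.74. Atp5b, the catalytic beta subunit, had the highest CPM of the nuclear members and, at 208 CPM per kb, the highest level per merged exon length of the nuclear subunits of complex V in normoxia. It also fell most of these, from 849.8, 1000 and 791 CPM to 485, 447 and 461 CPM (log2 fold change -0.92, SE 0.09, adjusted p = 2.43e-05). Atp5a1, the alpha subunit, fell by 0.71 on the log2 scale, to 112 CPM per kb of merged exon length beside 109.6 for Atp5b, whereas per length of the principal transcript Atp5b was higher, at 242 against 142 CPM per kb. Atp5c1, the gamma subunit of the central stalk, fell by 0.84. The epsilon subunit Atp5e (-0.84), the stalk proteins Atp5o (-0.84) and Atp5f1 (-0.70), and the membrane subunits Atp5k (-0.86), Atp5j2 (-0.80) and Atp5l (-0.64) fell too. The 3 genes for the c ring, whose mature proteins are the same, differed in size of change. Atp5g1 fell by 0.87 (SE 0.08) and Atp5g3 by 0.77 (SE 0.09), whereas Atp5g2 fell by 0.24 (SE 0.07, adjusted p = 0.010), the smallest change of the complex, although with GC offsets it was -0.51. These differences between genes were not tested. Atp5s, a low-level member known as coupling factor B, had between 76 and 151 counts and fell by 0.84 on the log2 scale (SE 0.16).

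The 6 mitochondrially encoded members were also lower at any fold, against 31.0% of all tested genes, with a median ratio of hypoxia to normoxia of 0.498. These members come with a limit on how reads were assigned. On the genes themselves, mt-Atp8 fell from 58.5, 77.8 and 65.7 CPM to 20.8, 24.5 and 26.0 CPM (log2 fold change -1.50, SE 0.12). With offsets for gene length its log2 fold change was -0.82, and 43 of its 204 bases overlap mt-Atp6. mt-Cytb, the complex III member, fell from 986, 1395 and 1285 CPM to 644, 582 and 654 CPM (log2 fold change -0.96, SE 0.12). For neither did an annotated nuclear copy meet the limits of the search, and stretches without annotation were not searched. mt-Co1, the catalytic subunit of complex IV, was the most abundant member and fell least, from 2870.3, 4005 and 3812 CPM to 2727, 2306 and 2607 CPM (log2 fold change -0.48, SE 0.13, adjusted p = 0.0080). Its call was lost in DESeq2 with the replicate number as a block (-0.47, adjusted p = 0.083; between 9.92e-05 and 0.083 over all alternatives). Its normoxic replicate 1 lay close to the hypoxic samples. The rank of mt-Co1 as least changed depends on the samples. Without normoxia replicate 2, mt-Co2 fell least, at -0.32, while mt-Co1 lay between -0.62 and -0.40 with any 1 sample left out.

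For mt-Co2, mt-Co3 and mt-Atp6, most reads stood on nuclear copies. The copies of mt-Co3 (Gm28437, 24613189 to 24613971), mt-Atp6 (Gm10925, 24613974 to 24614651) and mt-Co2 (Gm28661, 24614885 to 24615565) lie side by side on the minus strand of chromosome 1 (GRCm38) and match the mitochondrial genes over their whole length. In a sample, copies held between 86.4% and 91.3% of the summed counts of mt-Co2, between 75.7% and 83.7% of those of mt-Co3, between 67.4% and 76.3% of those of mt-Atp6, and between 8.27% and 9.96% of those of mt-Co1. Which of the reads came from the nucleus cannot be told from the counts.

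Summing each gene with its copies made the decreases of these 3 genes larger. The summed level of mt-Co3 was 2253 ± 221 CPM in normoxia and 846 ± 14.6 in hypoxia (SD, n = 3; log2 fold change -1.42, SE 0.08), against -1.09 (SE 0.13) for the gene alone. That of mt-Atp6 was 1617 ± 187 and 665 ± 34.0 CPM (SD, n = 3; -1.28 against -1.05), and that of mt-Co2 was 2680.1 ± 487 and 1494 ± 121 CPM (SD, n = 3; -0.84, SE 0.13, adjusted p = 4.14e-04, against -0.59, SE 0.21, adjusted p = 0.037). For mt-Co2 alone the groups overlapped, with 186, 392 and 296 CPM in normoxia and 200.1, 184 and 198 in hypoxia. Its call was lost without normoxia replicate 2 (log2 fold change -0.32, adjusted p = 0.10), normoxia replicate 3 (-0.58, adjusted p = 0.083) and each of the hypoxia replicates 1, 2 and 3 (-0.61, -0.56 and -0.60), with adjusted p between 2.82e-04 and 0.19 over all alternatives. For mt-Co1 the sum changed little (-0.50, SE 0.12).

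**Figure D3:**
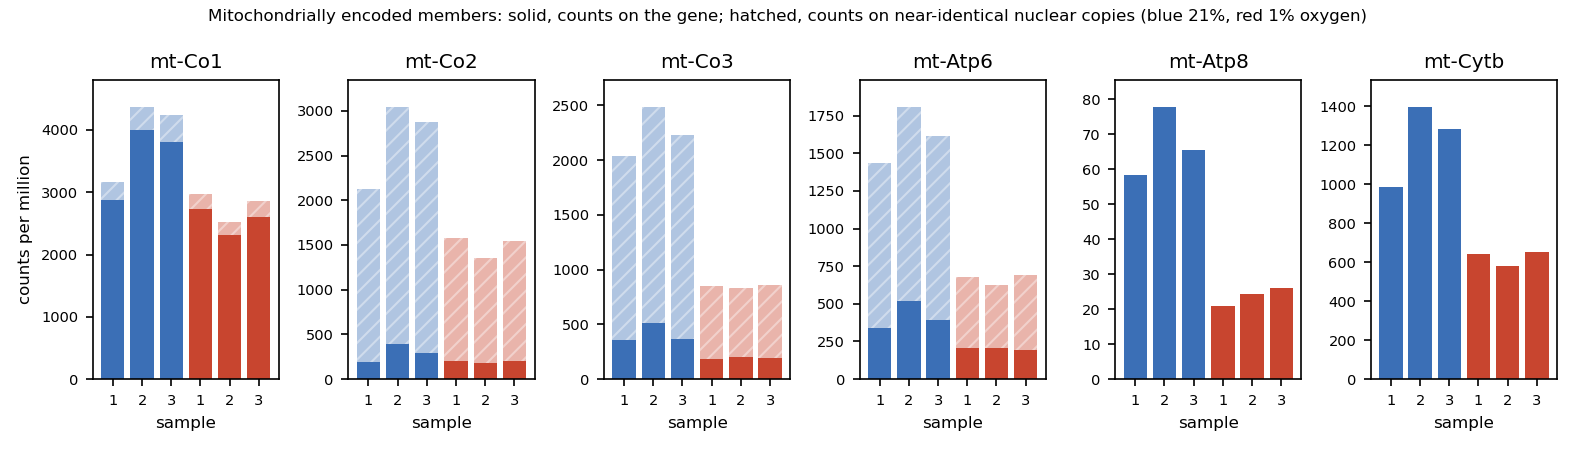
CPM of the 6 mitochondrially encoded members in each sample, with solid bars for counts on the gene, hatched bars for counts on its near-identical nuclear copies, blue for normoxia and red for hypoxia. Hatched parts make up most of mt-Co2, mt-Co3 and mt-Atp6, and the full bars of mt-Co3 fall from a mean of 2253 to 846 CPM.

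Nuclear and mitochondrial members were compared as sums. The 63 nuclear members summed to 5607, 6484 and 5467 CPM in normoxia and to 3833, 3834 and 3675 CPM in hypoxia, a ratio of the means of 0.646. The 6 mitochondrial members with their copies summed to 9813, 13171 and 12306 CPM in normoxia and to 6743, 5935 and 6634 CPM in hypoxia, a ratio of 0.547. Both sums were lower in every hypoxic sample, and normoxia replicate 2 had the highest value of each. The mitochondrial sum was 2.01 ± 0.25 times the nuclear sum in normoxia and 1.70 ± 0.14 times in hypoxia (SD, n = 3), with overlapping groups. Without the copies it was 1.02 ± 0.15 and 1.00 ± 0.08 times the nuclear sum. The libraries were made from poly(A) RNA, and how well mitochondrial mRNAs were captured in them was not measured. Normoxia replicate 2 also had the highest adipocyte (7290.4 CPM) and macrophage (1838 CPM) marker sums. Its Lpl, most of the adipocyte sum, was at 5283 CPM, against 5030 and 4559 in normoxia replicates 1 and 3. Its Fabp4 was at 1075 CPM, against 432 and 410. Without normoxia replicate 2, 32 members were lower by more than 1.5-fold, against 39 with it.

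**Figure D4:**
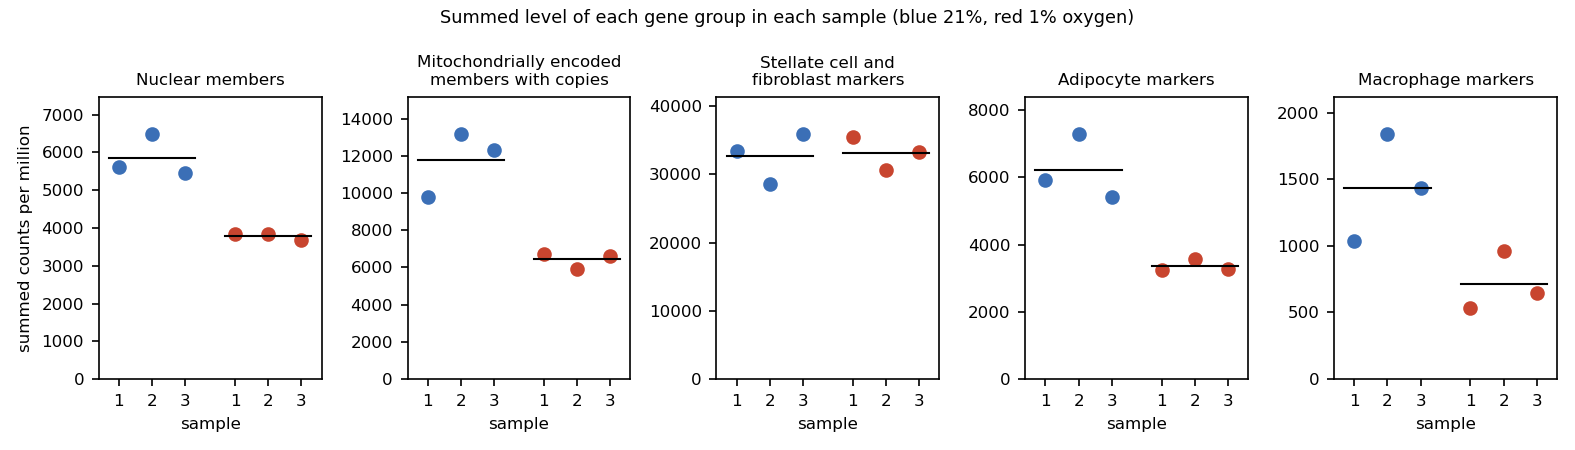
Summed CPM of the nuclear members, of the mitochondrially encoded members with their copies, and of 3 lists of cell type markers in each sample, with blue for normoxia, red for hypoxia and black lines for means. The nuclear members fall from between 5467 and 6484 to between 3675 and 3834 CPM, and the summed stellate cell and fibroblast markers overlap, although 6 of the 12 were lower and 4 higher.

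Other genes of the pathway were taken from lists made by function. Of 18 other complex IV subunits and assembly factors, 5 were lower by more than 1.5-fold, 12 were lower at any fold and none was higher, where 15.3% of all tested genes were lower by more than 1.5-fold and 31.0% at any fold. Ndufa4, first named for complex I and now counted in complex IV, fell from 69.9 ± 5.69 to 26.1 ± 0.83 CPM (SD, n = 3; log2 fold change -1.42, SE 0.07), and the copper factor Sco2 (-0.88), the translation activator Taco1 (-0.67) and Coa6 (-0.63) fell too. Of 6 complex III assembly genes, 2 were lower by more than 1.5-fold, Bcs1l (-0.73) and Uqcc2 (-0.70), against the same 15.3% of all tested genes, and Uqcc3 was lower by less (-0.28), whereas Uqcc1 (-0.16), Ttc19 (-0.07) and Lyrm7 (0.02) did not pass the test. Of 4 genes for complex V, 2 were lower by more than 1.5-fold, the inhibitor Atpif1 (-0.69) and Tmem70 (-0.65), Atpaf1 was lower by less (-0.51) and Atpaf2 did not pass the test (-0.23). All 7 complex I mRNAs of mitochondrial DNA were lower by more than 1.5-fold, by a median of -0.87, among them mt-Nd5 (-0.90), mt-Nd4 (-0.82), mt-Nd1 (-0.95) and mt-Nd6 (-0.87), without their nuclear copies added.

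Against this direction stood 3 of 5 genes listed for the known response of complex IV to low oxygen, which were higher by more than 1.5-fold, as were 18.9% of all tested genes. Higd1a, a regulator of complex IV, rose from 56.9 ± 4.67 to 183 ± 9.60 CPM (SD, n = 3; log2 fold change 1.68, SE 0.07). Ndufa4l2, a relative of Ndufa4, rose from 112 ± 22.3 to 323 ± 8.70 CPM (SD, n = 3; 1.53, SE 0.12), and Lonp1, the protease known to degrade the Cox4i1 protein, rose by 0.73 (SE 0.05). Higd2a was lower by less than 1.5-fold (-0.45, SE 0.06), and Hccs, which attaches heme to cytochrome c, had a value of -0.09 that did not pass the test.

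Among 8 nuclear regulators of respiratory genes, Ppargc1b fell by 2.35 on the log2 scale (SE 0.23), from 5.68 ± 0.85 to 1.12 ± 0.29 CPM (SD, n = 3), and its relative Ppargc1a by 1.16 (SE 0.16). Esrra, their nuclear receptor partner, was lower by less than 1.5-fold (-0.51, SE 0.10). Nrf1 (0.19), Gabpb1 (0.27), Pprc1 (0.21) and Yy1 (0.30) were higher by less than 1.5-fold, and Gabpa did not pass the test (-0.04). Of 10 genes of mitochondrial transcription and RNA stability, Tefm, an elongation factor, was lower by more than 1.5-fold (-0.67, SE 0.13), 4 were lower at any fold and 1, Tfb2m, was higher (0.18), where 15.3% of all tested genes were lower by more than 1.5-fold and 31.0% at any fold. Tfam, which packages mitochondrial DNA, had 26.7 ± 2.39 CPM in normoxia and 26.9 ± 0.34 in hypoxia (SD, n = 3; log2 fold change 0.01, SE 0.07), with overlapping groups.

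**Figure D5:**
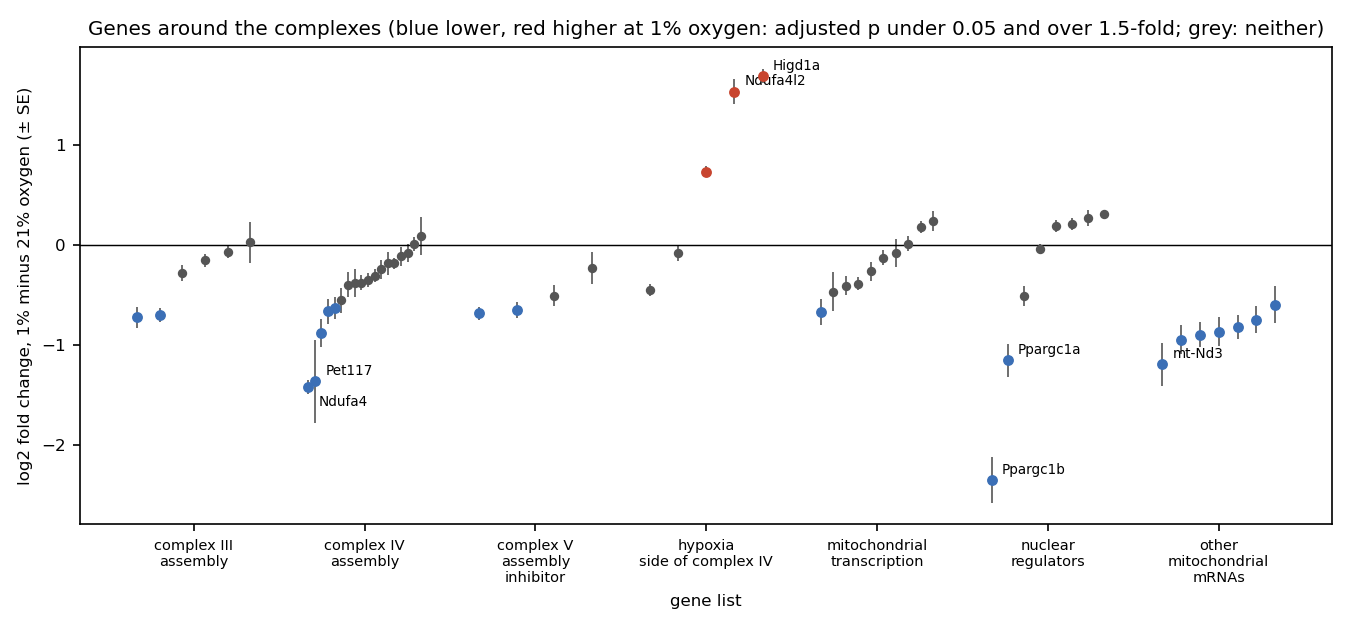
Log2 fold change with SE of genes in 7 lists around the complexes, with blue points lower and red points higher by more than 1.5-fold at an adjusted p under 0.05 and grey points neither. Ppargc1b is lowest at -2.35 and Higd1a highest at 1.68.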

How the data were processed

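RNA from 6 samples of cocultured PSCs was analysed, 3 per group, grouped by the labels. The authors prepared poly(A) libraries, trimmed reads, mapped them to GRCm38 with STAR (version 2.6.1b) and estimated counts per gene with RSEM (version 1.3.1), and the expected counts they deposited are unnormalized, with 0 values holding a fraction. Where reads fit several genes, RSEM divides them by an estimate. Gene names and coordinates came from GENCODE mouse release 21 on GRCm38, which held 55240 of the 55426 identifiers. Promoters came from RefSeq. Counts were tested with edgeR (version 4.0.16), with filterByExpr, TMM scaling and the quasi-likelihood test without a block, and SE is the size of the log2 fold change divided by the square root of F. Totals for CPM were TMM-scaled. Copies were annotated genes or pseudogenes of at least 95% identity over at least 50% of their length (blastn 2.17.0), and 38 were found for 18 members. Replicates differed by 6.10 to 24.0 in chi-square per degree of freedom, so each was counted. DESeq2 (version 1.42.0), limma-voom (limma 3.58.1), other scalings, filters, offsets, left-out samples and fold thresholds were alternatives, and the principal transcript length was added after seeing the data. Members and lists were chosen with earlier results of these data known. Genes named are members past 1.5-fold, mitochondrial members, forms of complex IV subunits and of the c ring, Cycs, Cyc1, the extreme and most abundant core subunits, extreme assembly members, and up to 4 genes past 1.5-fold per list. Other list genes, the members of smaller change, and the marker genes were chosen after their values were seen.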

Additional observations from a re-analysis of the deposited data

How the results depend on the processing

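Over 20 alternatives and 6 fits that each left out 1 sample, no called result reversed. With the replicate number as a block in edgeR, 37 members were lower and 2 higher by more than 1.5-fold and 56 were lower at any fold, and the block changed no call of a member at an adjusted p under 0.05 in that test. Same-numbered samples of the groups had correlations of 0.14, 0.14 and 0.04 between their deviations over 16207 genes. Other pairs had 0.0025 at most, so every sample correlated best with its own number. The labels do not say whether the numbers mark shared PSC lines, and the main test used no block. Length offsets moved the medians of complex II core to -0.74, complex II assembly to -0.77, complex III to -0.77 and complex V to -0.83, with the replicate block to -0.74, -0.77, -0.77 and -0.83, and GC offsets moved complex II assembly to -0.73 and complex V to -0.83. The median of all genes was -0.095 with length offsets and -0.091 with GC offsets, against -0.004 without. With a threshold of 1.2-fold, 4349 genes were lower and 4617 higher, and with 2-fold 1227 and 1929, with 4 members lower. The principal transcript length gave Cox4i2 shares of 20.8% in hypoxia and 2.97% in normoxia. Leaving out 1 sample, the medians ran from -0.71 to -0.58 for complex II assembly, from -0.72 to -0.55 for complex III and from -0.45 to -0.29 for complex IV assembly, and between 32 and 44 members were lower by more than 1.5-fold. DESeq2 lost the call of mt-Co2 (adjusted p = 0.080) and, with the replicate block, those of Sdhaf3 (0.072), mt-Co1 (0.083, where the range over its alternatives was from 9.92e-05 to 0.083) and mt-Co2 (0.19), and length offsets (0.061) and limma-voom (0.058) lost mt-Co2. Cox18 passed with upper-quartile scaling, and Cox18 and Cox19 passed as lower with length or GC offsets. The cause was not tested. With 3 samples a group, an exact test cannot go below 0.1. Among nuclear members, SE were largest for Cox6a2 (0.43) and Cox7a1 (0.21), which had few counts.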

Other observations

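The 2 nuclear copies of mt-Co1 differed. Gm13340 on chromosome 2, full length at 97.6% identity, was lower in hypoxia (log2 fold change -0.93, SE 0.13, adjusted p = 2.97e-04), while Gm29216 on chromosome 1, a stretch of 492 bases at 99.8% identity, had 75.4, 91.5 and 108 CPM in normoxia and 97.0, 93.01 and 92.95 in hypoxia, with overlapping groups (0.04, SE 0.11, adjusted p = 0.75). Its neighbours Gm28661 (-0.86), Gm10925 (-1.37) and Gm28437 (-1.50) were lower. The difference between the copies was not tested. Gm11273, annotated as protein coding and 99.2% identical to Cox5b over 390 bases, held between 197 and 408 counts in a sample, and Cox5b summed with it had a log2 fold change of -0.73, against -0.67 alone.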
